A study of Mus musculus with 6 samples.

Results

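The neuropilins, plexins and semaphorins described here are 10 genes of 18193 with a probe set of their own on the array, namely the co-receptors Nrp1 and Nrp2, the receptors Plxna1, Plxna2, Plxnb2, Plxnc1 and Plxnd1, and the ligands Sema4a, Sema4b and Sema4d. They were taken by gene symbol and read by 29 probe sets. The genes had been selected on earlier results of the same comparison, the log2 difference between ICN2-positive and ICN2-negative cells, so their differences, and counts of how many passed a threshold, are given as a description, with no p-value. The cells were bone marrow cells sorted as lineage negative, cKit+ and Sca1-, which the labels call myeloerythroid progenitors. In the ICN2-positive group, 3 samples came from male Rosa-lsl-ICN2 Mx1-cre+ mice, and in the ICN2-negative group 3 samples came from female Mx1-cre+ littermates. ICN2 is the intracellular part of Notch2, which signals without a ligand, and here it sits in the Rosa26 locus behind a stop cassette that Cre removes. Mice of both groups carried Mx1-cre and received 3 injections of polyIC, 20 mcg per g of body weight, at 6 weeks of age, and cells were taken 1 week after the last one. The Mx1 promoter answers to interferon in many cell types, so recombination was not limited to the sorted cells, and the sources used here do not state the share of recombined cells. Sex and genotype changed together and cannot be told apart. None of the 10 genes lies on a sex chromosome. Whether the replicates of a group were separate mice is not stated, so the spread between them may be technical.

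Semaphorins are secreted or membrane-bound ligands first known from axon guidance, and plexins are their receptors, which carry a domain in the cytoplasm that switches off small GTPases of the Ras family. Neuropilins have only a short cytoplasmic tail. They bind secreted semaphorins and vascular endothelial growth factor, and pass the signal on through plexins or VEGF receptors. In blood cells the family is known for roles in migration, in contacts between dendritic cells and lymphocytes, and in B cell and T cell activation.

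Values are log2 of the deposited intensity, made by the authors with RMA, and differences are ICN2-positive minus ICN2-negative, in log2 units. Probe sets entered the test if at least 3 of the 6 arrays gave them a value over that array's 40th percentile (5.26 to 5.30), and a gene was read by its tested probe set of highest mean. The values have no measured background, so a value near that percentile is dim, and levels of different probe sets are not compared. In whole bulk samples, fewer cells of a type and less RNA per cell cannot be told apart. The 6 arrays had nearly equal medians (6.05 to 6.09). Within its group ICN2-positive replicate 1 differed most, correlating with replicates 2 and 3 at 0.984 and 0.988 over all probe sets, against 0.995 between those replicates and 0.994 to 0.995 among ICN2-negative arrays. Kit, the gene of the sorted receptor, lay at 10.15 to 10.86 on ICN2-positive arrays and at 10.38 to 10.50 on ICN2-negative arrays. The list of progenitor markers that holds Kit had 7 tested genes, none of which passed in limma. Gata1, Gata2 and Klf1 overlapped, as Kit did. Cd34, Fcgr3 and Mpo lay lower on every ICN2-positive array than on any ICN2-negative array, as did 16.9% of all genes tested. The differences of Cd34, Fcgr3 and Mpo were -1.35, -2.05 and -1.02, with ICN2-positive replicate 1 the lowest array for each. Whether the groups differed in their mix of progenitors was not tested. Sca1 (Ly6a) had no probe set of its own and is not analysed here. Of the 2 Notch2 probe sets, 1 differed by 0.07 with overlap and the other lay at 7.29 to 7.52 on ICN2-positive arrays, above 6.49 to 6.62 on ICN2-negative arrays. Whether either reads the transgene was not tested.

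Among the 10 genes, 7 had a lower mean in ICN2-positive cells and 3 a higher one. The median absolute difference was 0.91, beside 0.18 over all 12837 genes tested, and the median signed difference was -0.52, beside 0.02. All 3 ICN2-positive values lay below all 3 ICN2-negative values for 6 genes (Nrp1, Nrp2, Plxnb2, Plxnd1, Sema4a and Sema4b), beside 16.9% of all genes tested, and above them for 2 (Plxna1 and Plxna2), beside 20.7%. Without ICN2-positive replicate 1, an alternative added after the values were seen, the counts were 6 and 4, the added genes being Plxnc1 and Sema4d. The shares above are for 3 against 3 arrays, and groups separate more easily with fewer arrays. No share of all genes is given for this alternative, so its counts cannot be set against one. In the limma fit over all genes, 3 of the 10 passed an adjusted p of 0.05 as lower (Nrp1, Nrp2 and Plxnb2), beside 1.78% of all genes, and 1 as higher (Plxna1), beside 2.59%. Since the members were chosen on this comparison, nothing is read from these counts. The count of 3 became 2 without ICN2-positive replicate 2 and 1 (Plxnb2) without ICN2-positive replicate 3, ICN2-negative replicate 2 or ICN2-negative replicate 3.

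**Figure D1:**
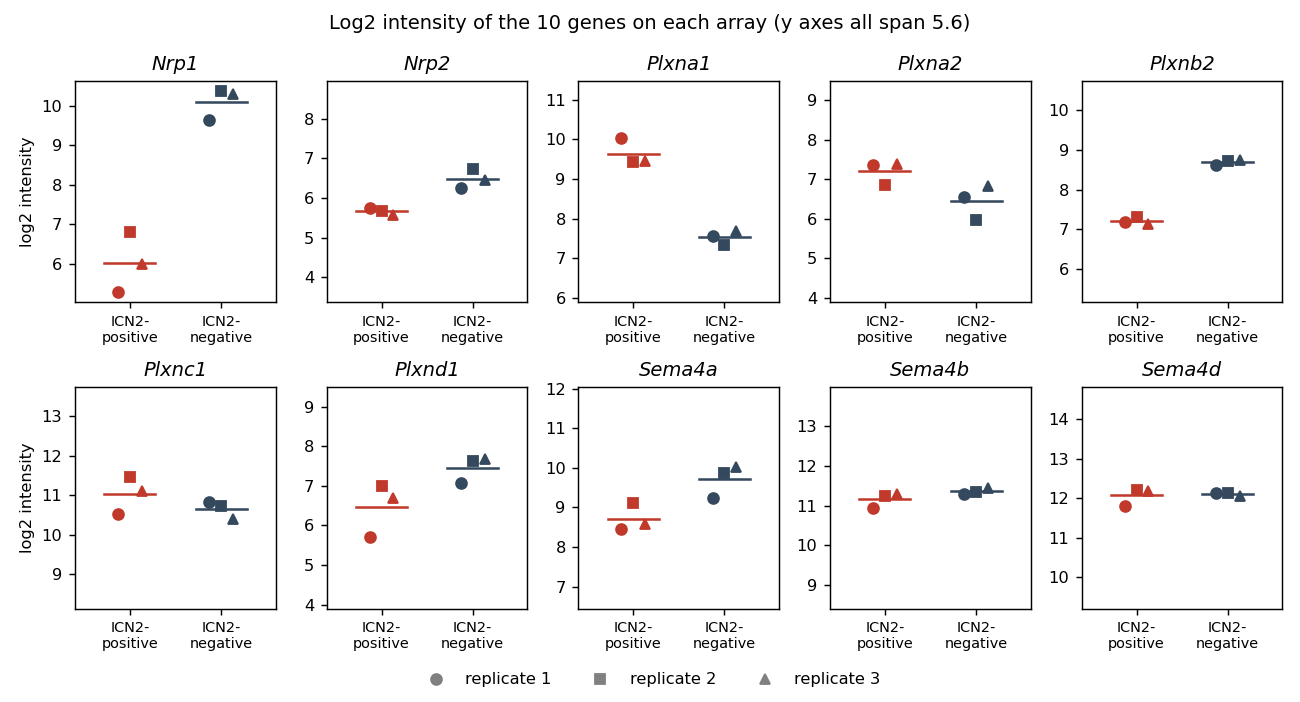
Log2 intensity of the 10 genes (y axis, each panel spanning the same range of log2 units) on the 3 ICN2-positive arrays (red, left) and the 3 ICN2-negative arrays (dark, right), with 1 point per array, its shape giving the replicate, and a line at the group mean. Nrp1 shows the widest gap, 5.28 to 6.81 against 9.64 to 10.37, Plxna1 and Plxna2 lie the other way, and Sema4d overlaps.

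Nrp1, the co-receptor of class 3 semaphorins and of VEGF, was the member with the largest difference. On 1448944_at it had 5.28, 6.81 and 6.01 in ICN2-positive replicates 1, 2 and 3, against 9.64, 10.37 and 10.29 in ICN2-negative replicates 1, 2 and 3. On the linear scale these are intensities of 38.9, 112 and 64.4 in ICN2-positive cells and of 795, 1321 and 1251 in ICN2-negative cells. The groups were 2.82 log2 units apart at their nearest values. The difference was -4.06 ± 0.42 (SE, n = 3 per group), a 16.7-fold lower mean, with ICN2-positive replicate 1 just below the 40th percentile and the other 2 above it. Without ICN2-positive replicate 1, which had the lowest value, the difference was -3.69. Nrp1 had 3 other probe sets. On 1448943_at, ICN2-positive arrays had 4.85, 5.45 and 4.86, against 7.87, 8.92 and 8.64 on ICN2-negative arrays. On 1418084_at, ICN2-positive arrays had 4.80, 4.83 and 5.42, against 7.73, 8.31 and 8.20 on ICN2-negative arrays. Both separated the groups as the first probe set did, with differences of -3.42 and -3.06 and on each a single ICN2-positive array passed the 40th percentile. The fourth, 1457198_at, was above it on only 1 array and was not tested.

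Nrp2, which binds class 3 semaphorins and lymphatic VEGF, was also lower. The probe set that reads it, 1426528_at, had 5.74, 5.67 and 5.57 in ICN2-positive cells and 6.26, 6.75 and 6.46 in ICN2-negative cells, a difference of -0.83 ± 0.14 (SE, n = 3 per group). The groups did not overlap. The ICN2-positive values were close together (SD 0.08, beside 0.24 in ICN2-negative cells). A second probe set, 1435349_at, had 4.92, 5.13 and 4.88 in ICN2-positive cells, all below the 40th percentile, against 6.09, 7.41 and 7.37 in ICN2-negative cells. Taken against that percentile the mean was at least 3.20-fold lower. The 2 tested probe sets gave the same direction and unlike sizes. The second met the filter only through the ICN2-negative arrays, where it was high, so its direction is given as a description. With the mean of both as the gene's value, which uses those values below the percentile, the difference was -1.40.

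Among the class A plexins, which pair with neuropilins to carry signals of secreted semaphorins, both members had higher means in ICN2-positive cells. On 1428623_at Plxna1 had 10.03, 9.43 and 9.47 in ICN2-positive cells, against 7.57, 7.33 and 7.68 in ICN2-negative cells. The lowest ICN2-positive value was 1.74 above the highest ICN2-negative one. The difference was 2.11 ± 0.19 (SE, n = 3 per group), or 4.33-fold. The second Plxna1 probe set, 1421232_at, did not share it, with 6.34 to 6.59 in ICN2-positive cells and 6.38 to 6.46 in ICN2-negative cells (difference -0.01). With the mean of both probe sets as its value Plxna1 differed by 1.05.

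Plxna2 was read by 1451753_at, with 7.35, 6.85 and 7.39 in ICN2-positive cells and 6.56, 5.97 and 6.83 in ICN2-negative cells, a difference of 0.74 ± 0.26 (SE, n = 3 per group). These groups were separated by only 0.02, between ICN2-positive replicate 2 and ICN2-negative replicate 3. Both other tested probe sets of Plxna2 kept the groups further apart. On 1453286_at, ICN2-positive cells had 7.05, 6.53 and 6.69, against 5.57, 5.54 and 5.58 in ICN2-negative cells. On 1455037_at, ICN2-positive cells had 7.33, 7.08 and 7.38, against 6.19, 5.04 and 6.21 in ICN2-negative cells. Their differences were 1.19 and 1.45, larger than that of the probe set used for the gene. The fourth, 1429772_at, was dim on all arrays.

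Plxnb2, a class B plexin that binds class 4 semaphorins, had close replicates in both groups. Its 1 probe set, 1416683_at, had 7.18, 7.30 and 7.13 in ICN2-positive cells, against 8.62, 8.73 and 8.76 in ICN2-negative cells. All ICN2-positive arrays, replicate 1 included, lay within 0.17 of each other, and the ICN2-negative arrays within 0.14. The difference was -1.50 ± 0.08 (SE, n = 3 per group), or 2.83-fold lower, and -1.49 without ICN2-positive replicate 1. Plxnd1, a receptor for Sema3E in mice and, with neuropilins, for Sema3C, had, on 1451475_at, 5.72, 7.01 and 6.70 in ICN2-positive cells, against 7.08, 7.63 and 7.68 in ICN2-negative cells. ICN2-positive replicate 1 was the lowest array, and replicate 2 came within 0.07 of the lowest ICN2-negative value. The difference was -0.98 ± 0.37 (SE, n = 3 per group) with it and -0.60 without it.

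Plxnc1, the receptor of Sema7A, was read by 6 probe sets, more than any other member, and separated the groups on none. The probe set that reads it, 1450905_at, had 10.53, 11.46 and 11.12 in ICN2-positive cells, against 10.83, 10.73 and 10.40 in ICN2-negative cells. The difference was 0.38 ± 0.26 (SE, n = 3 per group), and leaving out ICN2-positive replicate 1 gave 0.64, while leaving out replicate 2 gave 0.17. On all 5 tested probe sets ICN2-positive replicate 1 was the lowest of its group and replicate 2 the highest. ICN2-positive replicates 2 and 3 lay above all 3 ICN2-negative arrays on 4 of these 5 probe sets. The differences of the 5 ran from 0.09 to 0.81.

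Of the class 4 semaphorins, which are membrane-bound ligands, Sema4a had the largest difference. Its product is known from dendritic cells and T helper cells. On the probe set that reads it, ICN2-positive cells had 8.45, 9.10 and 8.59, against 9.23, 9.88 and 10.03 in ICN2-negative cells. The groups were 0.13 apart, with ICN2-positive replicate 2 and ICN2-negative replicate 1 the nearest. The mean was 2.00-fold lower in ICN2-positive cells (SE of the log2 difference 0.27, n = 3 per group), and the second probe set differed by -1.13 in log2 units. Sema4b had 10.95, 11.23 and 11.29 in ICN2-positive cells, against 11.29, 11.34 and 11.44 in ICN2-negative cells. Its groups touched, being 0.01 apart, with a difference of -0.20 ± 0.11 (SE, n = 3 per group), or -0.10 without ICN2-positive replicate 1, and on its second probe set they overlapped (-0.06). Sema4d, a T cell semaphorin that binds plexin B1 and CD72, had 11.80, 12.23 and 12.20 in ICN2-positive cells and 12.15, 12.14 and 12.06 in ICN2-negative cells. The difference was -0.04 ± 0.13 (SE, n = 3 per group). Leaving out ICN2-positive replicate 1 gave 0.10, while leaving out replicate 2 gave -0.12. The groups overlapped on all 3 Sema4d probe sets.

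**Figure D2:**
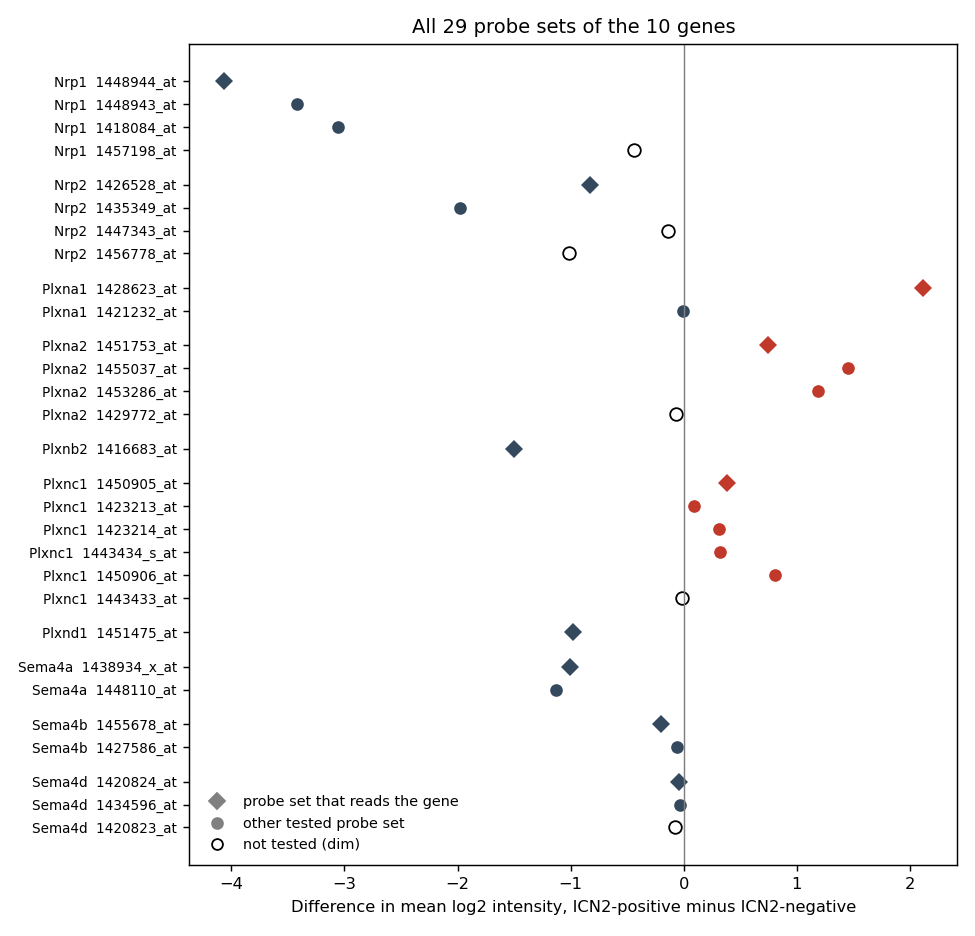
Difference in mean log2 intensity (x axis, ICN2-positive minus ICN2-negative) of all 29 probe sets of the 10 genes (rows). Diamonds mark the probe set that reads the gene, filled circles the other tested probe sets and open circles those not tested. The tested probe sets of Nrp1 lie between -4.06 and -3.06, while those of Plxna1 lie at 2.11 and -0.01.

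Of the 29 probe sets, 23 passed the filter on dim values and 6 did not. By a fit over all 27424 probe sets tested, 5 of the 23 were called lower, beside 0.988% of all those tested. They were 3 of Nrp1 and 1 each of Nrp2 and Plxnb2. In the other direction 2 were called, 1 of Plxna1 and 1 of Plxna2 (1453286_at), beside 1.67%. These counts rest on the contrast that chose the genes and are a description. No member had probe sets called in opposite directions.

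The promoters of Nrp1, Nrp2 and Plxnb2 are shown because these 3 genes passed the limma threshold as lower in ICN2-positive cells. Notch acts on DNA through the factor RBPJ. Whether RBPJ acts on these genes was not tested. RefSeq windows (GRCm38.p6) run from 250 bases before to 50 after a start site, and 9 of the 10 genes matched, with Plxna1 not listed. Each is printed 5′ to 3′ on the strand of the gene, and capitals mark the RBPJ core motif TGGGAA on either strand (TTCCCA on the other). The Nrp1 window lies on the plus strand at chr8:128358823-128359122, and that of Nrp2 on the plus strand at chr1:62703067-62703366. Plxnb2 has 2 windows on the minus strand, of which the one with the motif, at chr15:89180739-89181038, is printed and the one at chr15:89173902-89174201 is not.
Nrp1: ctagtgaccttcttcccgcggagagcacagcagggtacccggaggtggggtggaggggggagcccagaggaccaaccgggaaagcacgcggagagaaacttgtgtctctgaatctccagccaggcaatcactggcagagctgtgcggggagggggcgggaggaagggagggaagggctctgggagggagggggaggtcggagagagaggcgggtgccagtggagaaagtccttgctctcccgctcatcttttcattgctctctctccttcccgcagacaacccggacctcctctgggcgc
Nrp2: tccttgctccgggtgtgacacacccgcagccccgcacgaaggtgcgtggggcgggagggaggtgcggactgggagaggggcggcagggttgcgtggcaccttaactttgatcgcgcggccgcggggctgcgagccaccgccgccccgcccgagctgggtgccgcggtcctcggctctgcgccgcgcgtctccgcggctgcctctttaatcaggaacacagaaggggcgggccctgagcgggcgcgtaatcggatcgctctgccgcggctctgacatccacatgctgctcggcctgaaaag
Plxnb2: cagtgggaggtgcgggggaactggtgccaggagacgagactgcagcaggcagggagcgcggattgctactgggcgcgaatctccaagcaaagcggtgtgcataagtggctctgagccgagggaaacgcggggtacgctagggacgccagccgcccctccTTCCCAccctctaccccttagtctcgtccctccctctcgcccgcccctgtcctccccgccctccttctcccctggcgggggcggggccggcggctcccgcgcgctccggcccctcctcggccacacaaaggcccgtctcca

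The printed Plxnb2 window held the motif once, as TTCCCA, starting 91 bases before the start site. The other Plxnb2 window and the Nrp1 and Nrp2 windows did not hold these letters. Over the 16 windows of the 9 genes, 4 held the motif (25.0%), 1 each in Plxnb2, Plxnc1, Sema4a and Sema4d. Over all 32851 windows of the table the share was 25.6%.

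The other genes of the family and pathway were taken from lists of 77 genes, of which 54 could be tested. Of these, 1 rose (Sema3c) and 1 fell (Mras) at an adjusted p of 0.05 in limma over all genes, beside 2.59% and 1.78% of all genes tested. On the ICN2-positive arrays 9 of the 54 lay wholly above the ICN2-negative arrays, beside 20.7% of all genes, and 16 wholly below, beside 16.9%. The median difference was -0.09. With the limit on dim values at the 60th percentile, Sema3c and Mras were no longer tested, and Mical3 was called higher and Vegfa lower. Sema3c encodes a secreted semaphorin that signals through neuropilins with plexin D1 or class A plexins. It had 6.65, 8.48 and 7.56 in ICN2-positive cells, against 3.93, 3.88 and 4.30 in ICN2-negative cells, where all 3 values lay below the 40th percentile. Taken against that percentile the mean was at least 4.85-fold higher in ICN2-positive cells. The log2 difference without that limit was 3.53 ± 0.46 (SE, n = 3 per group, adjusted p = 0.022, limma). Sema3c met the filter on dim values only through the ICN2-positive arrays, where it was high, so its call is given as a description. It no longer passed when ICN2-positive replicate 3 was left out (adjusted p = 0.0845, limma), or ICN2-negative replicate 1, 2 or 3 (adjusted p = 0.0645, 0.104 and 0.0884, limma). Over the alternatives in which it was tested, all but the 60th percentile, its adjusted p in limma lay between 0.00146 and 0.104. A second Sema3c probe set, too dim to be tested, lay above the 40th percentile on 2 ICN2-positive arrays and differed by 0.39 with overlap. On the same ICN2-positive arrays the means of its receptor genes Nrp1, Nrp2 and Plxnd1 were lower and those of Plxna1 and Plxna2 higher.

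The other 6 semaphorins tested differed by -0.31 to 0.18 and none passed the test. Sema7a, whose product binds plexin C1 and beta 1 integrin, differed by -0.20 ± 0.13 (SE, n = 3 per group). The remaining 10 of the list were too dim to be tested, Sema4c, Sema4f and Sema4g among them. Of the other plexins, Plxna3 differed by -0.15 ± 0.16 and Plxna4, Plxnb1 and Plxnb3 lay below the 40th percentile on all 6 arrays. Plxnb1, the receptor for which Sema4d is best known, had 4.97 to 5.06 in ICN2-positive cells and 5.07 to 5.15 in ICN2-negative cells.

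None of 6 tested VEGF ligands and receptors passed over all genes in limma, and the median of the list was -0.22. Vegfa, a ligand that neuropilins bind, had 6.88, 6.38 and 6.41 in ICN2-positive cells, against 7.30, 7.29 and 7.57 in ICN2-negative cells. That is a difference of -0.83 ± 0.16 (adjusted p = 0.0557, limma), and -0.99 without ICN2-positive replicate 1, where it passed (adjusted p = 0.0176, limma, with 0.0038 to 0.177 over its alternatives). With the mean of its probe sets Vegfa differed by -0.45 (adjusted p = 0.139, limma). Flt1, a VEGF receptor, had 5.09, 5.57 and 5.93 in ICN2-positive cells, against 6.54, 6.93 and 8.01 in ICN2-negative cells. Its difference was -1.63 ± 0.43 (adjusted p = 0.0892, limma), and both genes kept the groups apart. Of 8 other receptors and receptor partners of semaphorins none passed, with a median of -0.60. Trem2, whose product associates with plexin A1 in mouse cells, differed by -1.04 ± 0.26 (adjusted p = 0.0799, limma), the opposite sign to Plxna1. That value came from an _s_at probe set. With the mean of its probe sets Trem2 differed by -0.58. Without _s_at, _x_at and _a_at probe sets it differed by -0.12 (adjusted p = 0.478, limma). The contrast in sign thus rests on 1 probe set of each gene. Itga1, an integrin chain of the semaphorin 7A receptor, had 4.51, 8.31 and 7.32 in ICN2-positive cells, against 9.52, 10.04 and 10.12 in ICN2-negative cells. Its difference of -3.18 ± 0.97 (adjusted p = 0.114, limma) had ICN2-positive replicate 1 far below replicates 2 and 3. Without that array it was -2.08 and passed (adjusted p = 0.0407, limma, with 0.0146 to 0.287 over its alternatives).

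Downstream of the receptors, 28 genes of plexin and neuropilin signalling were tested, with a median of -0.02. Mras, a Ras family GTPase, fell by 1.27 on the log2 scale (SE 0.09, n = 3 per group, adjusted p = 0.00608, limma). It had 5.39, 5.38 and 5.58 in ICN2-positive cells, against 6.59, 6.75 and 6.81 in ICN2-negative cells. The call held without any single array (adjusted p = 0.0108 to 0.0377), and a second Mras probe set differed by -0.44 with overlap. The other 27 genes did not pass, among them the GTPase genes Rac1 (-0.02 ± 0.07) and Rhoa (-0.01 ± 0.06). Rras2, another Ras family GTPase, differed by 1.75 ± 0.44 (adjusted p = 0.0828, limma), on the other side from Mras, and passed with the replicate number as a block (adjusted p = 0.0439, limma, with 0.031 to 0.242 over its alternatives). None of the 4 proteases that shed semaphorins passed. Mmp14 differed by 0.66 ± 0.19 (adjusted p = 0.104) and Adam17 by -0.27 ± 0.09 (adjusted p = 0.122, limma).

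**Figure D3:**
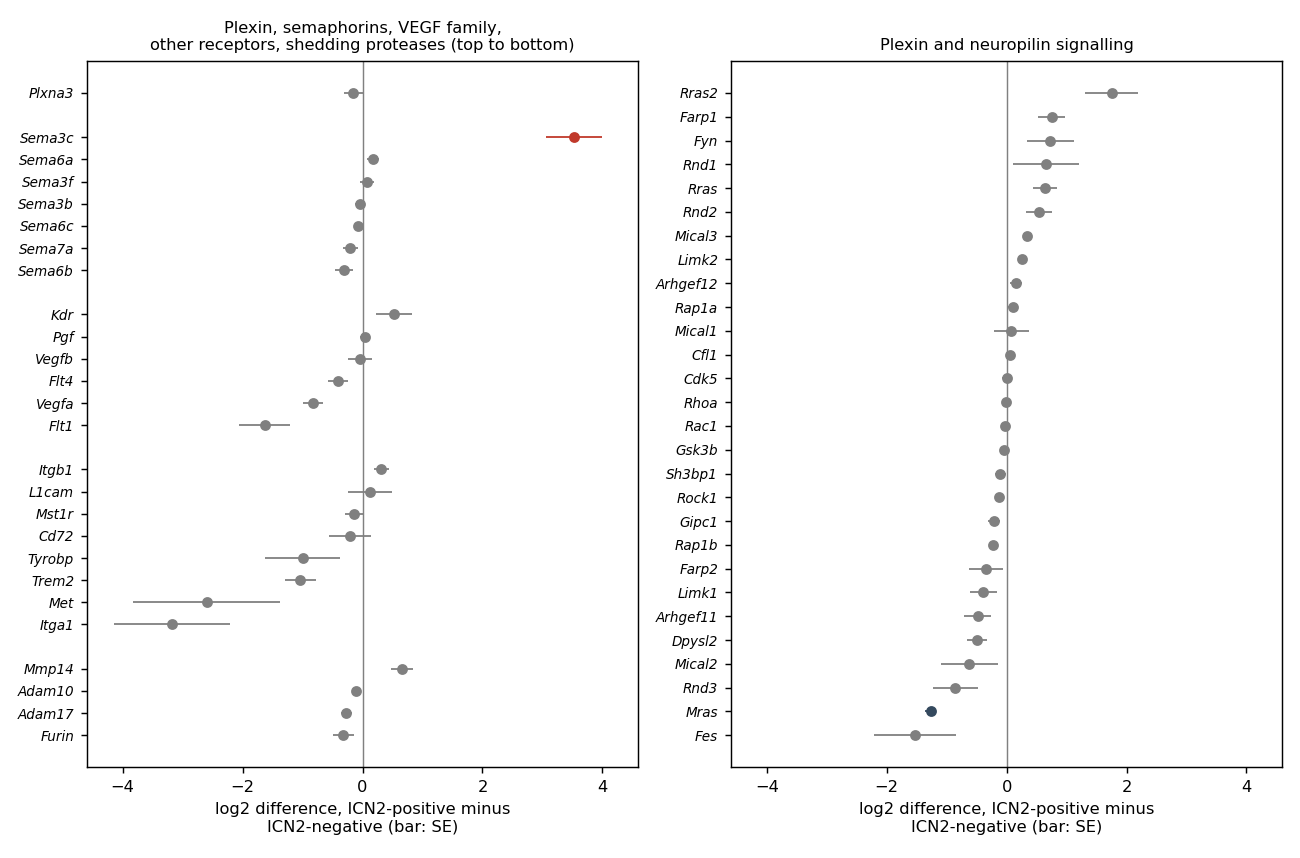
Log2 difference (x axis, ICN2-positive minus ICN2-negative, bars of 1 SE, n = 3 per group) of 54 other family and pathway genes (rows), grouped by list. Genes past an adjusted p of 0.05 in limma are in red (higher, Sema3c) or dark (lower, Mras), and the others are grey.

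Several lists of cell type markers also differed between the groups. In the lists of granulocyte-monocyte progenitors, monocytes and macrophages, B cells and T cells no gene passed the test (limma). Of all genes tested, 16.9% lay wholly lower on the ICN2-positive arrays and 20.7% wholly higher, and the counts of separated markers stand beside these shares. All 10 tested markers of granulocyte-monocyte progenitors lay lower on every ICN2-positive array than on any ICN2-negative array. Their summed linear intensity was 11530 to 67590 in ICN2-positive cells, lowest in replicate 1, and 89310 to 99360 in ICN2-negative cells. Of 7 monocyte and macrophage markers, 6 were separated in the same way, with sums of 1279 to 7301 in ICN2-positive cells and 13720 to 21160 in ICN2-negative cells. Of 10 markers of plasmacytoid and dendritic cells, Flt3 fell by 3.71 on the log2 scale (adjusted p = 0.00638, limma) and Cd74 was also separated, while Siglech (-0.20 ± 0.11) and Tcf4 (0.04 ± 0.07) did not pass. The sums of that list, 8086 to 10260 in ICN2-positive and 9813 to 12570 in ICN2-negative cells, overlapped. B cell markers (4 of 6 separated and lower) summed to 643 to 1809 in ICN2-positive cells and 2326 to 9910 in ICN2-negative cells. T cell markers (2 of 8 separated and higher, 1 lower) were near the shares of all genes. Their sums, 570 to 1241 in ICN2-positive cells and 348 to 612 in ICN2-negative cells, overlapped. Endothelial and stromal markers, which include the VEGF receptor gene Kdr, had 3 of 7 separated and higher. Their sums, 1113 to 2730 in ICN2-positive cells and 888 to 1441 in ICN2-negative cells, overlapped. Of 6 erythroid markers, Trim10 and Epb42 fell, with log2 differences of -1.60 and -1.94 (adjusted p = 0.00718 and 0.0239, limma) and Slc4a1 was also separated and lower. Epor (0.23), Klf1 (0.16) and Ermap (-0.04) overlapped. The erythroid sums, 18570 to 23080 in ICN2-positive cells and 22990 to 25450 in ICN2-negative cells, also overlapped. Of 8 neutrophil markers, 3 were separated and lower, Mmp8 among them, while Lcn2 differed by 0.02 with overlap. Mmp8 differed by -1.45 on the log2 scale (adjusted p = 0.00758, limma). All 3 of its ICN2-positive values lay below the 40th percentile. It met the filter only through the ICN2-negative arrays, where it was high, so its call is given as a description. The neutrophil sums, 9807 to 29180 in ICN2-positive cells and 24980 to 32000 in ICN2-negative cells, overlapped. The macrophage marker Itgam lay below the 40th percentile on all 6 arrays. The part of these cell types in the differences of Nrp1, Plxnd1, Sema4a and the other members was not tested.

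**Figure D4:**
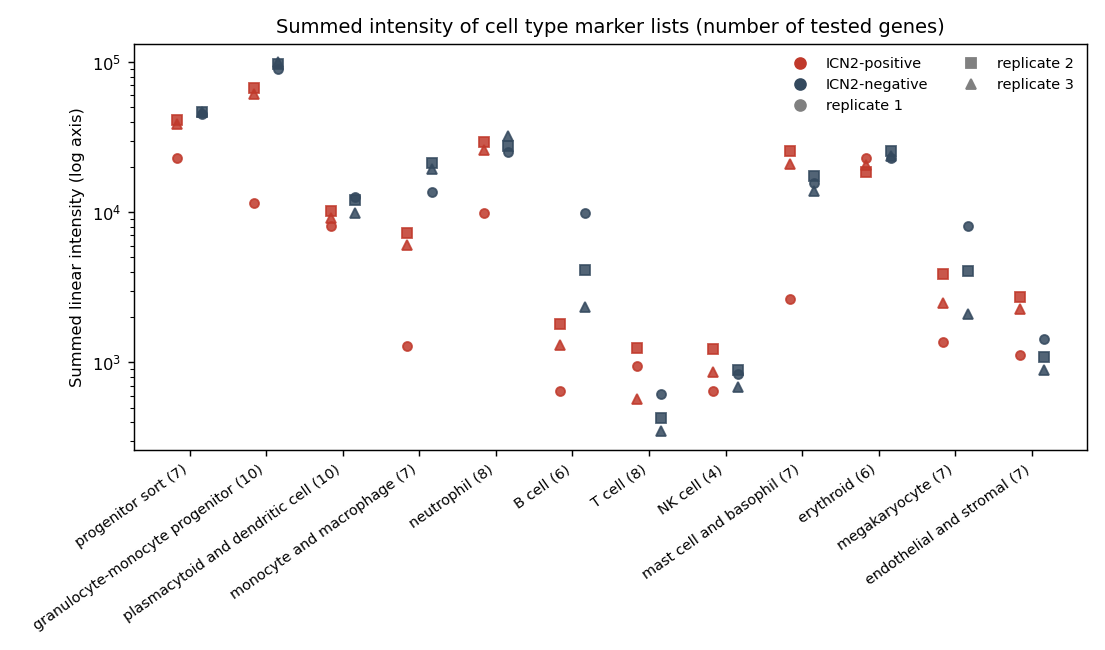
Summed linear intensity (y axis, log scale) of the tested genes of each cell type marker list on each array, ICN2-positive in red on the left of each pair and ICN2-negative in dark on the right, with the point shape giving the replicate. ICN2-positive replicate 1 (red circles) is the lowest array in the granulocyte-monocyte progenitor list (11530) and in the monocyte and macrophage list (1279).

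The members were not alike in how they varied over the 6 arrays. The likeness of 2 genes was measured as the root mean square difference of their log2 profiles over the 6 arrays, each taken from its own mean. The closest members were Sema4b and Sema4d (0.11), both nearly flat, then Plxnd1 and Sema4a (0.26), which were both lower in ICN2-positive cells and higher in ICN2-negative replicates 2 and 3 than in replicate 1. Over all genes tested, those most like Nrp1 were Slpi (0.31), Abca9 (0.32), Il6st (0.37), Ptpro (0.43) and Ahnak (0.44). Slpi had 7.47, 9.19 and 9.14 in ICN2-positive cells, against 12.40, 12.72 and 12.88 in ICN2-negative cells, so that, as for Nrp1, ICN2-positive replicate 1 was the lowest array. The genes most like Plxna1 were Rpap3 (0.08), Homer2 (0.11), Cd248 (0.12), Septin1 (0.17) and Bhlhe40 (0.17). Cd248 had 10.82, 10.46 and 10.59 in ICN2-positive cells, against 8.62, 8.15 and 8.70 in ICN2-negative cells, and ICN2-positive replicate 1 was the highest array for it, as it was for Plxna1. These genes were picked for their likeness, which is a description.

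**Figure D5:**
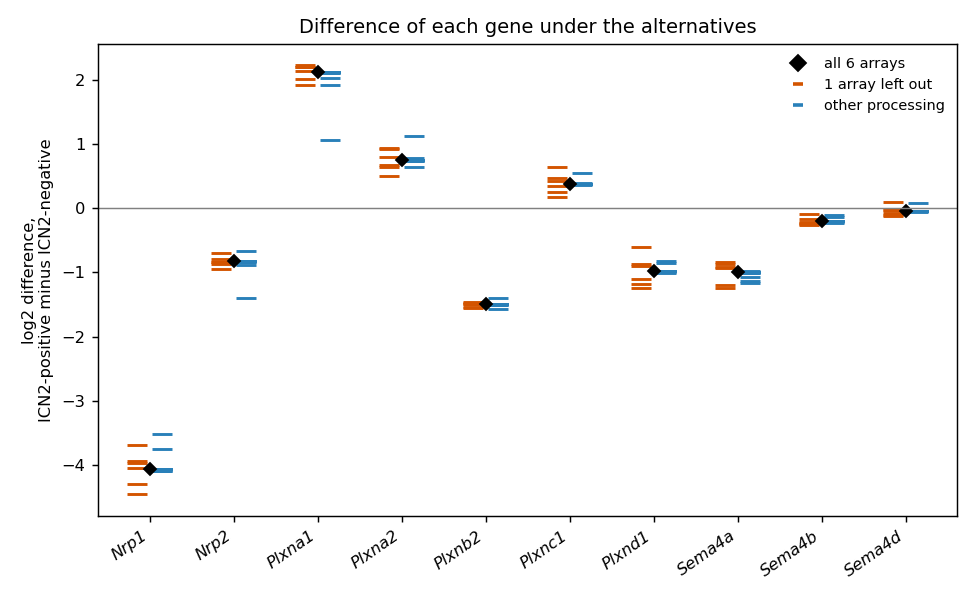
Log2 difference of each of the 10 genes (y axis, ICN2-positive minus ICN2-negative) with all 6 arrays (black diamonds), with 1 array left out (orange) and under the other processing alternatives (blue). Nrp1 stays between -4.45 and -3.51 and Plxnb2 between -1.57 and -1.40, while Plxna1 reaches 1.05 when its probe sets are averaged.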

How the data were processed

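The authors deposited intensities on a linear scale, 1 value for each array and probe set, made with RMA per the submitters' processing notes, which state no version. Per the labels' protocols, 5 ng of RNA was amplified. RMA equalizes arrays, so a change in total RNA per cell would not be seen. Of 45101 probe sets, 64 controls were left out. By the platform annotation 34945 had 1 gene, 932 several and 9160 none, and only those with 1 gene were named. Log2 was taken, and 27424 probe sets and 12837 genes passed the filter. The fit was limma 3.58.1 in R 4.3.3 (lmFit, eBayes) with Benjamini-Hochberg adjustment over all genes, without covariates, checked on simulated data. SEs beside a gene's difference come from it. The number of arrays limits the precision. For Sema3c and the second Nrp2 probe set, where all 3 arrays of a group lay below the 40th percentile, a fold was taken against it. Members, lists and marker genes were chosen with earlier results of these data known. All members were named. From each pathway list the rule named genes past the threshold, or else the 2 of smallest p, and also the 5 genes most like Nrp1 and those most like Plxna1. Rac1, Rhoa, Rras2, Sema7a, Plxnb1, Met and the markers were named after their values were seen. Alternatives covered the filter, normalization, variance model, array weights, probe set choice, a pseudocount, the replicate number as a term and each array left out.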

Additional observations from a re-analysis of the deposited data

How the results depend on the processing

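The differences of Nrp1, Nrp2, Plxna1, Plxna2, Plxnb2, Plxnc1, Plxnd1, Sema4a and Sema4b kept their sign under every alternative that could test them, and that of Sema4d ranged from -0.12 to 0.10. Where the groups did not overlap, leaving out 1 array could not change the sign. The members were also chosen on this comparison, so the kept signs are a description. A limit at the 60th percentile left 7 of the 10 genes, without Nrp2, Plxna2 and Plxnd1. The number of members called lower was 3, with 5 under array weights and 1 to 3 with 1 array left out. The number called higher was 1, with 2 under array weights or with the mean of a gene's probe sets, and 1 without any single array. For the other family and pathway genes, 1 was called higher, with 7 under array weights, 2 with a trended variance and 0 to 1 with 1 array left out. Of these genes 1 was called lower, with 7 under array weights and 2 with a trended variance, averaged probe sets or no _s_at, _x_at and _a_at probe sets. That number was 1 to 5 with 1 array left out, 5 being without ICN2-positive replicate 1 (Fes, Itga1, Met, Mras and Vegfa). Over all genes 560 were called, with 3262 under array weights, 847 with a trended variance and 99 to 768 with 1 array left out. Whether the replicate numbers mark pairs of arrays is not stated and was not tested. Deviations of same-numbered arrays correlated at 0.18, 0.14 and 0.09. Those of arrays with unlike numbers correlated at -0.22 to 0.16. The only positive value among them was that of ICN2-positive replicate 3 with ICN2-negative replicate 2 (0.16). With the replicate block, 340 genes were called, 2 members lower (Nrp1 and Plxnb2) and 1 higher. Of the pathway genes 2 were called lower (Flt1 and Mras) and Rras2 higher, and Sema3c missed the threshold (adjusted p = 0.0519). The cause of these changes was not tested. With no measured background, values near the 40th percentile, such as those of Nrp1 in ICN2-positive cells, carry an uncertain fold.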

Other observations

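Several genes outside the family lists stood closest to a member in profile. Rpap3 had 11.28, 10.87 and 10.94 in ICN2-positive cells, against 9.06, 8.82 and 9.08 in ICN2-negative cells. Homer2, a postsynaptic scaffold gene that also occurs outside neurons, had 8.45, 7.82 and 7.94 in ICN2-positive cells, against 6.00, 5.68 and 5.81 in ICN2-negative cells. In both, as for Plxna1, ICN2-positive replicate 1 was the highest array and ICN2-positive replicate 2 the lowest of its group. Met, the receptor for hepatocyte growth factor, which also joins class B plexins, had 5.87, 10.32 and 10.11 in ICN2-positive cells, against 11.14, 11.30 and 11.65 in ICN2-negative cells, a difference of -2.60 ± 1.22 (SE, n = 3 per group, adjusted p = 0.236 in limma). Without ICN2-positive replicate 1 the Met difference was -1.15 ± 0.17 and passed (adjusted p = 0.0329 in limma, with 0.0329 to 0.43 over its alternatives).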
